A study of Mus musculus with 21 samples.

Results

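The levels of 10 genes that define the disease-associated state of microglia were followed across forebrain RNA of 21 mice in 6 groups. The genes were Clec7a, Itgax, Cst7, Lpl, Spp1, Gpnmb, Cd9, Lgals3, Igf1 and Cd52, chosen by name and matched by symbol to their Ensembl identifiers, and they were 10 of the 55401 genes in the table of counts. All 10 passed the filter on low counts in every comparison. The E2H, E3H and E4H mice, 3 per group, were homozygous for a human APOE2, APOE3 or APOE4 coding sequence in place of mouse Apoe on a C57BL6 background and were taken at 9 to 10 months of age. Their PS19 counterparts (PS/E2H, PS/E3H, PS/E4H), 4 per group, were heterozygous in addition for the PS19 transgene, which expresses human tau with the P301S mutation mainly in neurons from the mouse prion promoter, and they were taken when their hindlimbs became paralyzed. The transgene came from a B6/C3H stock that was crossed to an APOE line and then backcrossed to it. Tau transgene, paralysis, age at death and strain background therefore cannot be told apart wherever PS19 mice are set against parental mice. Every group shared the replacement of mouse Apoe, so no group carried the mouse gene in its normal form.

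Microglia are the resident macrophages of the brain. Near amyloid plaques, tau pathology and dying neurons they lower genes of their resting (homeostatic) state and raise genes for phagocytosis, lysosomal digestion and lipid handling, a change that depends in its later part on the lipid-sensing receptor TREM2 and in which Apoe itself takes part. The 10 genes fall into surface molecules (Clec7a, Itgax, Cd9, Cd52), lysosomal proteins (Cst7, Gpnmb), an enzyme of lipid uptake (Lpl) and secreted factors (Spp1, Lgals3, Igf1). In RNA from whole forebrain, more cells of a type and more RNA per cell cannot be told apart.

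The libraries held 59265459 to 75932183 counts, with a median of 63751715. Levels are given as CPM (counts scaled to library size with TMM factors), which compares 1 gene between mice, and as FPKM, which also divides by transcript length and is used to compare genes with each other. None of the 27 pairs of mice within groups agreed within counting error (chi-square of 17.9 to 73.1, averaged over genes). E2H mouse 2 stood apart from its group, with a chi-square of 70.8 and 62.8 against E2H mice 1 and 3, which differed from each other by 18.4. It had the highest share of mitochondrial counts of the 21 libraries, 10.9% against 7.25% to 9.25% in the others, and APOE2 counts are given below with and without it. Counts of Xist exceeded those of the Y-linked gene Ddx3y in 17 libraries (12188 to 36358 against 0 to 21), and in the other 4 libraries Ddx3y was higher (2517 to 4246 against 164 to 189). These 4 libraries were E4H mouse 3, PS/E2H mouse 2 and PS/E4H mice 1 and 4. The study's methods put the mice of the rarer sex in the same groups but name them female, and the labels give no sex, so the counts below were repeated without these libraries. Of lists of other cell types, neuronal markers summed to 6289 to 6863 CPM in parental and 5595 to 6804 CPM in PS19 mice, and the homeostatic microglia list to 466 to 806 CPM in parental and 742 to 1124 CPM in PS19 mice, so markers of the labelled tissue and of microglia were present in every library. In the homeostatic list 1 gene held 16434 to 52911 counts and no other exceeded 6189, so its sum follows that gene. The geometric mean of the list overlapped in APOE2 mice, at 25.0 to 32.4 CPM in E2H and 21.1 to 37.4 CPM in PS/E2H mice. In APOE3 mice it did not, at 25.9 to 27.1 CPM in E3H and 31.2 to 39.9 CPM in PS/E3H mice. Nor did it in APOE4 mice, at 24.5 to 26.7 CPM in E4H and 38.0 to 42.5 CPM in PS/E4H mice.

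Matches to short motifs were looked for around the starts of the core genes, because a set of genes that move together may share letters there. RefSeq promoter sequences of GRCm38.p6 (250 bases before to 50 bases after a start) were held for 8 of the 10 genes, in 10 windows, and not for Lpl and Cd52. The motif TGANTCA, bound by AP-1 factors such as Fos and Jun, was in windows of 4 of the 8 genes, and in 7.81% of all 32851 promoter windows of this length. Both strands were read and no match overlapped another motif. The 4 matches follow, 5′ to 3′ on the plus strand in 30 bases each, with the matched letters in capitals.
Itgax, chr7:128129483-128129512: cccacctcctcTGAGTCAcgctgacaactt
Igf1, chr10:87861063-87861092: gagctggaactTGAATCActattctggata
Cst7, chr2:150570398-150570427: tctggttaaaaTGATTCAgcaagaaaccac
Gpnmb, chr6:49036515-49036544: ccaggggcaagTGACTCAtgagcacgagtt
The first matched base lay 56 bases before the start in Itgax, 37 bases before it in Igf1, 6 bases before it in Cst7 and 8 bases after it in Gpnmb. A match to GAGGAAGT, bound by the myeloid factor PU.1, lay 113 bases before the start of Spp1 and was in 3.2% of all windows, and these letters are the capitals in the last sequence.
Spp1, chr5:104434987-104435016: caaaaccagagGAGGAAGTgtaggagcagg
Of the E-box letters read by factors of lysosomal genes, CACGTG was in none of the 8 genes (7.15% of all windows) and CATGTG was in Cd9 (14.2%). These matches describe letters in a window and were not tested as sites.

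In parental mice the levels of the core genes were spread widely. Per transcript length, Cd9 was highest, at 17.1 ± 1.56 FPKM (SD, n = 3) in E2H, 17.2 ± 0.771 in E3H and 17.4 ± 1.43 in E4H mice. Spp1 followed with 15 ± 1.4, 11.8 ± 2.29 and 10.2 ± 2.2 FPKM in the same order, and its range overlapped that of Cd9 in E2H mice but not in E3H or E4H mice. Itgax was lowest in each parental group, at 0.194 ± 0.041, 0.21 ± 0.0509 and 0.141 ± 0.0615 FPKM. Cd9 is also known from oligodendrocytes and Spp1 from some neurons. In PS19 mice the order changed: Cst7 moved from place 7, 8 and 9 in E2H, E3H and E4H mice to place 3 in each PS19 group, with 11.3 ± 5.21 FPKM (SD, n = 4) in PS/E2H, 11.9 ± 3.36 in PS/E3H and 13.5 ± 6.01 in PS/E4H mice. Igf1 was lowest in every PS19 group, at 0.975 ± 0.238, 1.25 ± 0.394 and 1.2 ± 0.256 FPKM. From place 3 to place 8, each gene overlapped in range with the next one in every PS19 group, whereas the gene in place 9 did not overlap with Igf1.

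The first question was whether the core genes were higher in PS19 mice than in their parental line, on each APOE background. With limits of 0.05 on the adjusted p and 2 on the fold change (edgeR's quasi-likelihood test, Benjamini-Hochberg adjustment over all genes tested), 3 of the 10 genes were called higher in PS/E2H over E2H mice, 8 in PS/E3H over E3H mice and 9 in PS/E4H over E4H mice. Of all genes tested, 0.451% were called higher in APOE2 mice, 1.2% in APOE3 mice and 2.4% in APOE4 mice. No core gene was called lower, where 0.034%, 0.127% and 0.581% of all genes were. The median log2 fold change of the 10 genes was 1.36 in APOE2, 2.16 in APOE3 and 2.56 in APOE4 mice, where the median over all genes tested was between -0.02 and 0.00. Every PS19 mouse lay above every parental mouse of its line for 7 genes in APOE2, 9 in APOE3 and 10 in APOE4 mice, against 6.67%, 10.5% and 15.1% of all genes tested. Without the 4 libraries in which Ddx3y exceeded Xist, 4 genes were called in APOE2 mice, where Spp1 was added, and 9 in APOE4 mice, with 0.465% and 2.35% of all genes called in either direction. Without E2H mouse 2, which stood apart from its group, the same 3 genes were called in APOE2 mice and 0.373% of all genes were.

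**Figure D1:**
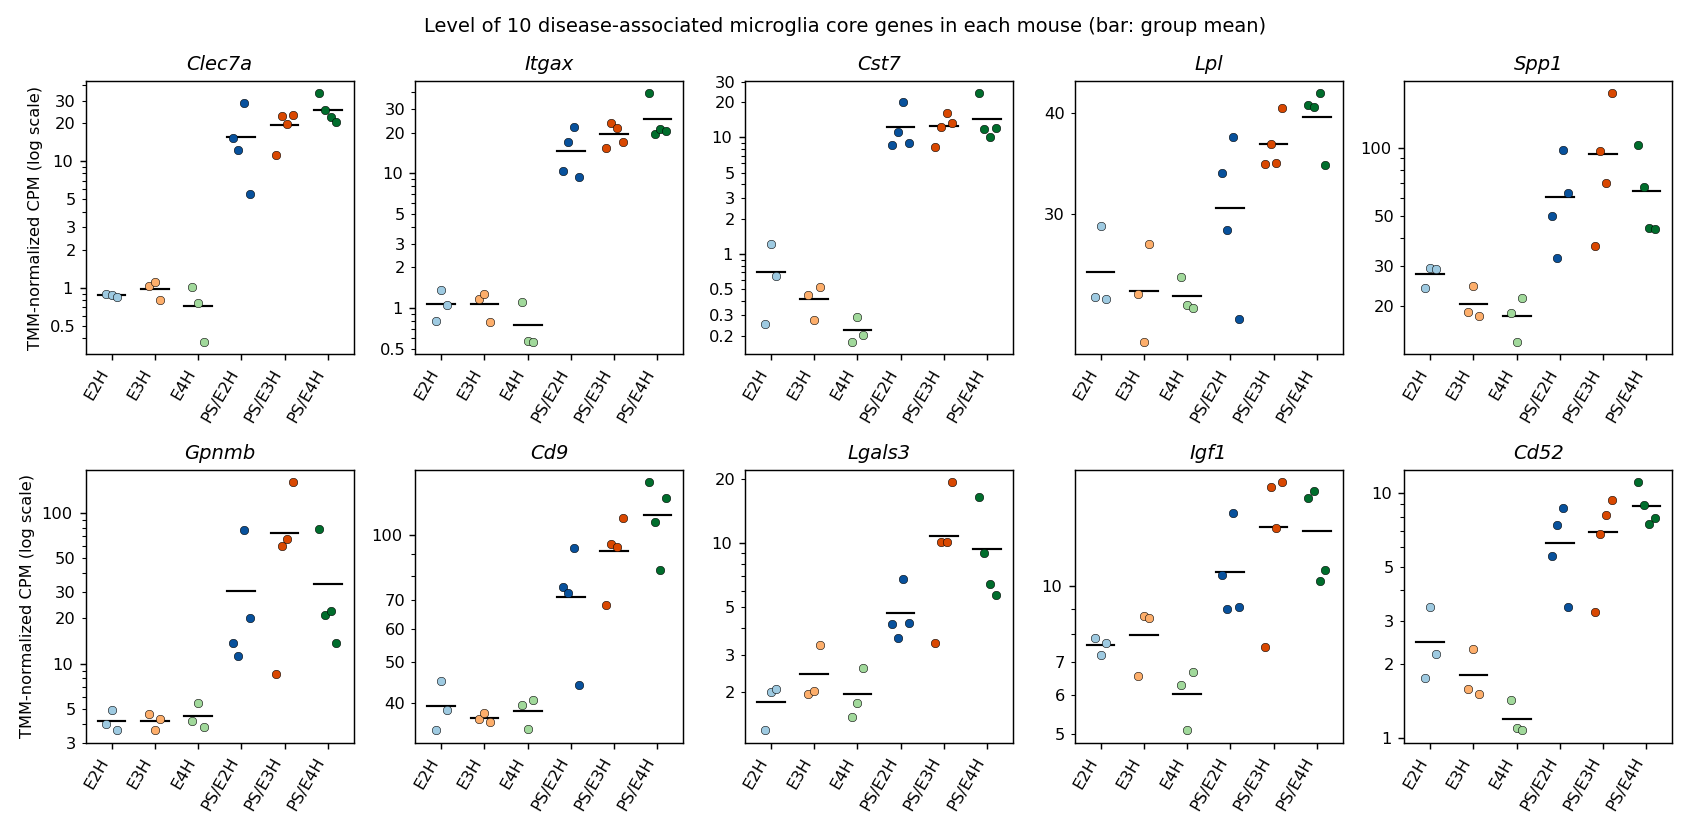
Each panel plots 1 gene, with a point per mouse in TMM-normalized CPM on a log axis and a bar at the group mean, for the parental groups E2H, E3H and E4H (light, n = 3) and the PS19 groups (dark, n = 4). Clec7a, Itgax, Cst7 and Gpnmb separate all PS19 from all parental mice, as do Spp1 and Lgals3 by narrow gaps. Lpl, Cd9 and Igf1 move over a narrow range.

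Among surface molecules, Clec7a and Itgax rose most. Clec7a (ENSMUSG00000079293, chromosome 6, 129461591 to 129472779, minus strand), which the annotation lists as a polymorphic pseudogene, encodes dectin-1, a receptor for fungal beta-glucans that signals through the kinase Syk. Its CPM was 0.902, 0.883 and 0.839 in the E2H mice, 1.03, 1.1 and 0.804 in the E3H mice and 1.01, 0.756 and 0.376 in the E4H mice. It was 15.1, 12.3, 29 and 5.48 in the PS/E2H mice, 11.2, 22.6, 19.6 and 23.1 in the PS/E3H mice and 34.2, 25.3, 22.1 and 20.2 in the PS/E4H mice. The lowest PS19 mouse, PS/E2H mouse 4, was still above all 9 parental mice. Against parental mice, the log2 fold change was 4.13 (standard error 0.51, adjusted p = 0.00768) in APOE2 mice, 4.28 (standard error 0.274, adjusted p = 9.11e-05) in APOE3 mice and 5.15 (standard error 0.318, adjusted p = 4.37e-05) in APOE4 mice, called in all 3 lines. The APOE2 call was lost without E2H mouse 1 or mouse 3, where the highest adjusted p was 0.0647, and with limma on log2(FPKM + 1).

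Itgax (ENSMUSG00000030789, chromosome 7, 128129547 to 128150657, plus strand) encodes CD11c, the alpha chain of a complement receptor integrin that marks dendritic cells and activated microglia, and its promoter match is the first shown above. Its CPM was 0.809, 1.36 and 1.06 in the E2H mice, 1.17, 1.26 and 0.791 in the E3H mice and 1.1, 0.571 and 0.565 in the E4H mice. It was 10.4, 17, 22 and 9.42 in the PS/E2H mice, 15.4, 23.7, 21.7 and 17.1 in the PS/E3H mice and 39, 19.5, 21.2 and 20.6 in the PS/E4H mice. The groups with and without the tau transgene did not overlap in any line, and PS/E4H mouse 1 stood above the other 11 PS19 mice. The log2 fold change was 3.77 (standard error 0.347, adjusted p = 0.00215) in APOE2 mice, 4.18 (standard error 0.219, adjusted p = 3.62e-05) in APOE3 mice and 5.07 (standard error 0.35, adjusted p = 4.37e-05) in APOE4 mice. The call held in each line with each mouse left out in turn.

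Cd9 (ENSMUSG00000030342, chromosome 6, 125460266 to 125494791, minus strand) encodes a tetraspanin that organizes adhesion molecules in the membrane. Its CPM was 34.5, 45.2 and 38.6 in the E2H mice, 36.8, 38 and 36 in the E3H mice and 39.5, 34.8 and 40.7 in the E4H mice. It was 75.1, 73, 93.1 and 44.1 in the PS/E2H mice, 68.1, 95.4, 93.4 and 109.7 in the PS/E3H mice and 133, 107, 82.6 and 122 in the PS/E4H mice. PS/E2H mouse 4 fell within the E2H range, and the groups did not overlap in the other 2 lines. PS19 mice differed from parental mice by a log2 fold change of 0.85 (standard error 0.211, adjusted p = 0.125) in APOE2 mice, 1.3 (standard error 0.134, adjusted p = 0.00186) in APOE3 mice and 1.53 (standard error 0.145, adjusted p = 0.000217) in APOE4 mice, called in APOE3 and APOE4 mice. The transcripts of Cd9 share 14.4% of their 50-base windows with other genes, and its exons overlap those of Gm26728 on the opposite strand.

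Cd52 (ENSMUSG00000000682, chromosome 4, 134082448 to 134095082, minus strand) encodes a small glycoprotein anchored in the membrane of leukocytes. Its CPM was 1.76, 3.43 and 2.2 in the E2H mice, 1.59, 2.3 and 1.52 in the E3H mice and 1.43, 1.1 and 1.08 in the E4H mice. It was 5.53, 7.4, 8.65 and 3.42 in the PS/E2H mice, 3.26, 6.8, 8.16 and 9.39 in the PS/E3H mice and 11.1, 8.9, 7.44 and 7.87 in the PS/E4H mice. PS/E2H mouse 4 lay at the top of the E2H range, and the E4H mice were lower than all E2H mice. The log2 fold change was 1.34 (standard error 0.334, adjusted p = 0.125) in APOE2 mice, 1.93 (standard error 0.333, adjusted p = 0.0133) in APOE3 mice and 2.87 (standard error 0.199, adjusted p = 4.37e-05) in APOE4 mice, called in APOE3 and APOE4 mice, and the APOE3 call was lost without E3H mouse 1 or mouse 3. The exons of Cd52 overlap those of Crybg2 on the opposite strand, the setting for strand in the authors' counting is not given in the sources used here, and reads of the pair may not be separated.

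Of the lysosomal genes, Cst7 was called in all 3 lines and Gpnmb in APOE3 and APOE4 mice. Cst7 (ENSMUSG00000068129, chromosome 2, 150570415 to 150578944, plus strand) encodes cystatin F, an inhibitor of cysteine proteases that is delivered to lysosomes. Its CPM was 0.252, 1.22 and 0.647 in the E2H mice, 0.447, 0.272 and 0.519 in the E3H mice and 0.178, 0.292 and 0.202 in the E4H mice, with as few as 12 counts in a library. It was 8.65, 11.2, 20.1 and 8.98 in the PS/E2H mice, 8.34, 12.3, 16.2 and 13.4 in the PS/E3H mice and 23.8, 11.7, 10.2 and 12 in the PS/E4H mice. The lowest of the 12 PS19 mice lay far above the highest parental mouse, E2H mouse 2. As a log2 fold change this was 4.14 (standard error 0.505, adjusted p = 0.00726) in APOE2 mice, 4.89 (standard error 0.293, adjusted p = 7.02e-05) in APOE3 mice and 5.98 (standard error 0.39, adjusted p = 4.37e-05) in APOE4 mice, and the APOE2 call was lost without E2H mouse 3.

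Gpnmb (ENSMUSG00000029816, chromosome 6, 49036546 to 49070929, plus strand) encodes a transmembrane glycoprotein of lysosomes and melanosomes, found in macrophages that take up lipid. Its CPM was 3.98, 4.91 and 3.65 in the E2H mice, 4.66, 3.62 and 4.32 in the E3H mice and 4.19, 5.45 and 3.81 in the E4H mice. It was 13.8, 11.2, 76.9 and 20.1 in the PS/E2H mice, 8.6, 60.3, 67.7 and 160.2 in the PS/E3H mice and 78.4, 21, 22.3 and 13.8 in the PS/E4H mice. The parental mice lay close together, whereas the highest PS19 mouse of a group held 5.69 to 18.6 times the CPM of the lowest, the widest span of the 10 genes. Its log2 fold change was 2.86 (standard error 0.64, adjusted p = 0.0918) in APOE2 mice, 4.13 (standard error 0.76, adjusted p = 0.0169) in APOE3 mice and 2.91 (standard error 0.558, adjusted p = 0.00801) in APOE4 mice. It missed the threshold in APOE2 mice and passed without PS/E2H mouse 3, its highest mouse, at a log2 fold change of 1.85.

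Lpl and Igf1 moved least. Lpl (ENSMUSG00000015568, chromosome 8, 68880491 to 68907448, plus strand) encodes lipoprotein lipase, which releases fatty acids from lipoproteins. Its CPM was 23.7, 28.9 and 23.5 in the E2H mice, 23.8, 20.8 and 27.5 in the E3H mice and 25.1, 23.1 and 22.9 in the E4H mice. It was 33.7, 28.6, 37.3 and 22.2 in the PS/E2H mice, 34.5, 36.6, 34.7 and 40.6 in the PS/E3H mice and 40.9, 40.6, 42.3 and 34.5 in the PS/E4H mice. The PS/E2H mice spanned the whole E2H range, and the groups did not overlap in the other 2 lines. The log2 fold change was 0.26 (standard error 0.169, adjusted p = 0.671) in APOE2 mice, 0.59 (standard error 0.105, adjusted p = 0.0139) in APOE3 mice and 0.73 (standard error 0.0874, adjusted p = 0.000787) in APOE4 mice, so the adjusted p passed in APOE3 and APOE4 mice while the fold stayed under 2 in all 3 lines.

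Igf1 (ENSMUSG00000020053, chromosome 10, 87858265 to 87937042, plus strand) encodes insulin-like growth factor 1, made by neurons as well as by microglia. Its CPM was 7.85, 7.26 and 7.68 in the E2H mice, 6.56, 8.71 and 8.61 in the E3H mice and 6.31, 5.09 and 6.71 in the E4H mice. It was 10.5, 8.99, 14.1 and 9.09 in the PS/E2H mice, 7.52, 15.9, 13.1 and 16.3 in the PS/E3H mice and 15.1, 15.6, 10.3 and 10.8 in the PS/E4H mice. PS/E3H mouse 1 lay within the E3H range, and the groups did not overlap in APOE2 and APOE4 mice. Its log2 fold change was 0.48 (standard error 0.177, adjusted p = 0.336) in APOE2 mice, 0.72 (standard error 0.237, adjusted p = 0.108) in APOE3 mice and 1.1 (standard error 0.183, adjusted p = 0.00423) in APOE4 mice, called in APOE4 mice. That call was lost without E4H mouse 2 or PS/E4H mouse 2, where the log2 fold change went down to 0.99, and with limma on log2(FPKM + 1) and on log2(FPKM + 0.1).

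The other secreted factors lay between Clec7a and Lpl in their fold changes. Spp1 (ENSMUSG00000029304, chromosome 5, 104435118 to 104441050, plus strand) encodes osteopontin, a phosphoprotein that binds integrins and CD44. Its CPM was 24.2, 29.6 and 29.3 in the E2H mice, 18.8, 24.5 and 18 in the E3H mice and 18.6, 13.9 and 21.7 in the E4H mice. It was 49.9, 32.6, 98.3 and 63 in the PS/E2H mice, 36.9, 96.4, 69.6 and 174 in the PS/E3H mice and 103, 66.9, 44.2 and 44 in the PS/E4H mice. PS/E3H mouse 4 was higher than every other mouse, and PS19 and parental mice did not overlap in any line. The log2 fold change was 1.13 (standard error 0.3, adjusted p = 0.151) in APOE2 mice, 2.19 (standard error 0.418, adjusted p = 0.0186) in APOE3 mice and 1.83 (standard error 0.294, adjusted p = 0.00355) in APOE4 mice, called in APOE3 and APOE4 mice. The transcripts of Spp1 share 11.6% of their 50-base windows with other genes, and its exons overlap those of Gm42793 on the same strand.

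Lgals3 (ENSMUSG00000050335, chromosome 14, 47367751 to 47386160, plus strand) encodes galectin-3, a lectin that binds beta-galactosides on glycoproteins and damaged lysosomes. Its CPM was 1.33, 2.0 and 2.08 in the E2H mice, 1.97, 2.03 and 3.32 in the E3H mice and 1.53, 1.78 and 2.61 in the E4H mice. It was 4.17, 3.59, 6.82 and 4.25 in the PS/E2H mice, 3.41, 10.2, 10.1 and 19.4 in the PS/E3H mice and 16.4, 8.99, 6.42 and 5.74 in the PS/E4H mice. PS19 and parental mice did not overlap in any line, but the gap was narrow in APOE3 mice, where E3H mouse 3 and PS/E3H mouse 1 lay next to each other. By line, the log2 fold change was 1.38 (standard error 0.274, adjusted p = 0.0577) in APOE2 mice, 2.12 (standard error 0.471, adjusted p = 0.0303) in APOE3 mice and 2.24 (standard error 0.373, adjusted p = 0.00417) in APOE4 mice, called in APOE3 and APOE4 mice. The APOE3 call was lost in 6 of the 7 fits with 1 mouse left out.

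The counts of called genes depended on single parental mice. Without E2H mouse 3, 1 core gene (Itgax) was called in APOE2 mice, and the share of all genes called in either direction went from 0.485% to 0.146%. Without E3H mouse 1, 2 or 3, 4, 5 and 4 core genes were called in APOE3 mice, and Spp1, Gpnmb and Lgals3 were lost each time. The share of all genes called there went from 1.32% to 0.356%, 0.573% and 0.441% in the same order, so the counts of core genes and of all genes fell together. In APOE4 mice 8 or 9 were called whichever mouse was left out.

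**Figure D2:**
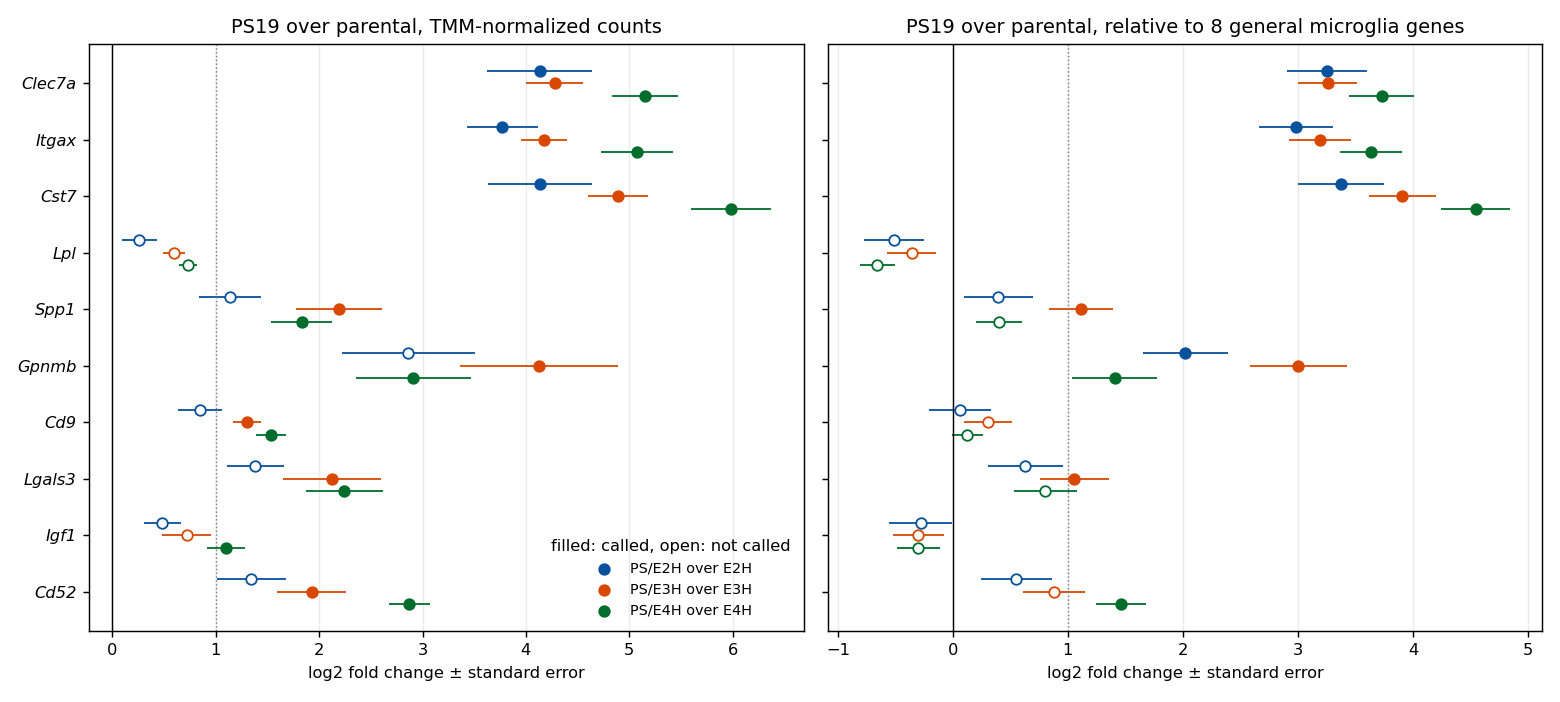
Points give the log2 fold change of each gene in the 3 lines, with bars of 1 standard error, from TMM-normalized counts (left) and relative to 8 general microglia genes (right). Filled points were called, the dotted line marks the 2-fold limit, and Lpl and Igf1 lie below 0 in the right panel, a sign that turned when libraries were scaled to homeostatic microglia genes.

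Part of the genes that all microglia express also rose. The list of 8 general microglia genes had 1, 3 and 6 genes called higher in APOE2, APOE3 and APOE4 mice, with median log2 fold changes of 0.77, 0.83 and 1.34. Its geometric mean was 26.2 to 34.2 CPM in parental mice and 36.8 to 85.0 CPM in PS19 mice, without overlap. The core genes were therefore fitted again with each library scaled to that geometric mean, which asks whether a gene rose more than general microglia genes. On this scale the median over all genes tested was -0.74, -0.95 and -1.39 in APOE2, APOE3 and APOE4 mice.

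Relative to general microglia genes, 4 core genes were called higher in APOE2 mice, 6 in APOE3 mice and 5 in APOE4 mice, where 0.548%, 0.593% and 0.518% of all genes tested were called higher. None was called lower, and 10.5%, 36.8% and 78.7% of all genes tested were on this scale. The scale by itself lowers genes that did not rise with the general microglia genes, so these shares say nothing about the core genes. The numbers of all genes called in APOE2 and APOE3 mice on this scale moved by over 1.5 times with single mice left out, while 4 core genes were still called in APOE2 mice without E2H mouse 2. Clec7a, Itgax, Cst7 and Gpnmb were called in each line. Cst7 had the highest log2 differences of the 10 genes, 3.37 (standard error 0.372, adjusted p = 1.78e-08), 3.91 (standard error 0.29, adjusted p = 2.00e-10) and 4.54 (standard error 0.299, adjusted p = 1.63e-08) in APOE2, APOE3 and APOE4 mice by edgeR. Gpnmb followed a different order of lines, with 2.02 (standard error 0.372, adjusted p = 0.000655), 3.0 (standard error 0.423, adjusted p = 1.83e-05) and 1.41 (standard error 0.366, adjusted p = 0.00171). Cd52 passed in APOE4 mice at 1.46 (adjusted p = 5.56e-06), and Spp1 and Lgals3 in APOE3 mice at 1.11 (adjusted p = 0.000861) and 1.06 (adjusted p = 0.00247). With libraries scaled to the homeostatic list instead, Cd52 in APOE3 mice (1.47) and Spp1 in APOE4 mice (1.19) were called too.

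The remaining genes were not called in any line on this scale. Cd9, called in 2 lines on the TMM scale, had log2 differences of 0.06 (standard error 0.269, adjusted p = 0.852), 0.31 (standard error 0.211, adjusted p = 0.187) and 0.13 (standard error 0.136, adjusted p = 0.381) in the 3 lines. With libraries scaled to the homeostatic list, those of Cd9 were larger, at 0.66 in APOE2 and 0.87 in APOE3 mice, so its value depended on the scale. Igf1 had -0.28 (standard error 0.273, adjusted p = 0.368), -0.30 (standard error 0.218, adjusted p = 0.21) and -0.30 (standard error 0.189, adjusted p = 0.141), and with libraries scaled to the homeostatic list instead its sign turned to 0.32, 0.28 and 0.45. Lpl had -0.51 (standard error 0.264, adjusted p = 0.0895), -0.36 (standard error 0.213, adjusted p = 0.125) and -0.66 (standard error 0.15, adjusted p = 0.000542), and its sign turned likewise to 0.09, 0.18 and 0.09. In APOE4 mice the adjusted p of Lpl passed while its fold stayed under 2. On this scale the adjusted p passed for 86.5% of all genes tested in APOE4 mice, in either direction. As a ratio to the microglia geometric mean, Lpl was 0.802 to 0.847 in E2H and 0.527 to 0.603 in PS/E2H mice, 0.714 to 0.864 in E3H and 0.537 to 0.779 in PS/E3H mice, and 0.809 to 0.939 in E4H and 0.482 to 0.659 in PS/E4H mice. These ranges overlapped in APOE3 mice and did not in the other 2 lines. The share of all genes whose ratios did not overlap was not counted. The scale by itself lowers genes that did not rise with the general microglia genes, so this is not particular to Lpl. Without the libraries in which Ddx3y exceeded Xist, 4 core genes were called on this scale in APOE2 and 4 in APOE4 mice, where Gpnmb was lost, as it was without PS/E4H mouse 1 alone (log2 difference 0.78). Without PS/E3H mouse 4, Spp1 and Lgals3 were lost and 4 core genes were called in APOE3 mice.

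The second question was whether the core genes differed between APOE genotypes. PS19 mice were taken at paralysis, which the study reports at a later median age in PS/E3H mice than in PS/E2H or PS/E4H mice. Among PS19 groups, APOE genotype and age at death therefore cannot be told apart. Among paralyzed PS19 mice no core gene was called, in comparisons where 0.108% (PS/E2H over PS/E3H), 0.0197% (PS/E4H over PS/E3H) and 0.109% (PS/E4H over PS/E2H) of all genes tested were called in either direction. The smallest adjusted p of the 10 genes was 0.403, 0.780 and 0.309 in that order by edgeR, and 1, 0 and 4 of them had an unadjusted p under 0.05. All 10 log2 fold changes were negative in PS/E2H over PS/E3H mice, with a median of -0.34, and all 10 were positive in PS/E4H over PS/E2H mice, with a median of 0.44. The 3 comparisons share mice, so these directions are not independent of each other. DESeq2 called none of the 10 genes at both limits, where it called 0.305%, 0.0639% and 0.376% of all genes, although Cd9 had an adjusted p of 0.0487 by DESeq2 in PS/E4H over PS/E2H mice at a log2 fold change of 0.64, a fold under 2. With edgeR and without the libraries in which Ddx3y exceeded Xist, none of the 10 genes was called and 0.0866%, 0.0186% and 0.0907% of all genes were. Group ranges overlapped for each of the 10 genes in each comparison, where 5.37%, 3.85% and 6.82% of all genes did not overlap, and a p above the threshold does not show that the groups were alike.

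The 4 genes below an unadjusted 0.05 in PS/E4H over PS/E2H mice were Cd9, Lgals3, Itgax and Lpl. Cd9 averaged 111 ± 22 CPM (SD, n = 4) in the PS/E4H mice, against 71.3 ± 20.2 CPM in the PS/E2H mice, a log2 fold change of 0.64 (standard error 0.201, adjusted p = 0.309 by edgeR). Lgals3 differed by 0.99 (standard error 0.321, adjusted p = 0.316 by edgeR) and was also the gene below 0.05 in PS/E2H over PS/E3H mice, at -1.2 (standard error 0.41).

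Among parental mice no core gene was called either, where 0.144% (E2H over E3H), 0.1% (E4H over E3H) and 0.187% (E4H over E2H) of all genes tested were called. DESeq2 called no core gene at both limits, where it called 0.375%, 0.172% and 0.457% of all genes. The smallest adjusted p was 0.258, 0.677 and 0.342 by edgeR, and 1, 2 and 3 of the 10 genes had an unadjusted p under 0.05. Of the 10 genes, 8 had a negative log2 fold change in E4H over E3H mice and 8 in E4H over E2H mice, with medians of -0.35 and -0.30. Cst7 had the lowest value in both, -0.88 (standard error 0.514) and -1.63 (standard error 0.611), and Cd52 came next with -0.58 (standard error 0.256) and -1.02 (standard error 0.294). With 1 mouse left out at a time, the E4H over E2H value of Cst7 ran from -2.03 to -0.996. That of Cd52 ran from -1.22 to -0.72. E2H mouse 2, the library that stood apart, was the highest E2H mouse for both genes. The log2 fold change of Spp1 in E4H over E2H mice was -0.61 (standard error 0.163, adjusted p = 0.342 by edgeR), and its adjusted p was 0.0367 by DESeq2, with a fold under 2. The E4H mice lay below all E2H mice for Spp1, Igf1 and Cd52 and below all E3H mice for Cd52, and no core gene separated E2H from E3H mice, where 21.3%, 12.7% and 23.3% of all genes tested did not overlap in the 3 comparisons. The E4H libraries are also the denominators of the PS/E4H fold changes above. Without E4H mouse 3, the parental library in which Ddx3y exceeded Xist, no core gene was called by edgeR. Of all genes, 0.0784% were then called in E4H over E3H and 0.163% in E4H over E2H mice. Without E2H mouse 2, no core gene was called either. Of all genes, 0.166% were then called in E2H over E3H and 0.185% in E4H over E2H mice.

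Whether the rise in PS19 mice differed between APOE backgrounds was tested as an interaction. Differences in age at death between the PS19 groups are part of these differences and cannot be told apart from APOE genotype. With edgeR no core gene and none of the 22031 to 22212 genes tested (0%) reached an adjusted p of 0.05 in any of the 3 differences, and 0 (APOE2 minus APOE3), 3 (APOE4 minus APOE3) and 6 (APOE4 minus APOE2) core genes had an unadjusted p under 0.05. All 10 genes had a larger log2 fold change in APOE4 than in APOE2 mice, with a median difference of 0.77. The difference was furthest from 0 for its error in Cd52, at 1.53 (standard error 0.407, adjusted p = 0.309 by edgeR), and it was largest in Cst7, at 1.84 (standard error 0.668, adjusted p = 0.399 by edgeR). With DESeq2, Cd52 was called in this difference at an adjusted p of 0.0453, in a fit that called 112 genes (0.508%), and no other core gene was. In Cd52 the difference rested on both ends, since the E4H mice were lowest among parental mice and the PS/E4H mice highest on average among PS19 mice. Against APOE3 mice, the APOE4 differences were 0.94 (standard error 0.403) for Cd52, 1.09 (standard error 0.5) for Cst7 and -1.22 (standard error 0.974) for Gpnmb. Without the libraries in which Ddx3y exceeded Xist, no core gene was called by edgeR. Of all genes, 0% (APOE2 minus APOE3), 0.0175% (APOE4 minus APOE3) and 0.0223% (APOE4 minus APOE2) then were. Without E2H mouse 2, no core gene was called either. Of all genes, 0.00428% (APOE2 minus APOE3) and 0.00437% (APOE4 minus APOE2) then were.

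Single mice were high or low across most of the core genes. PS/E2H mouse 3 was highest of its group for 10 of the 10 genes, PS/E3H mouse 4 for 8 and PS/E4H mouse 1 for 8, and PS/E3H mouse 1 was lowest of its group for all 10. In the parental groups no mouse was highest for more than 7 genes, the number in E2H mouse 2, the library that stood apart. The general microglia list was also highest of its group in PS/E2H mouse 3, PS/E3H mouse 4 and PS/E4H mouse 1, with geometric means of 64.2, 71.7 and 85.0 CPM. It was lowest of its group in PS/E3H mouse 1, at 44.3 CPM, and lowest of all PS19 mice in PS/E2H mouse 4, at 36.8 CPM. PS/E2H mouse 4 was also low in the geometric mean of the oligodendrocyte list, at 206 CPM against 318 to 347 CPM in the other PS/E2H mice. Without PS/E2H mouse 4, Cd9 was called higher in APOE2 mice. The size of the swing differed by gene. The highest PS19 mouse of a group held 1.18 to 1.68 times the CPM of the lowest for Lpl, 1.61 to 2.11 times for Cd9 and 1.53 to 2.34 times for Itgax, but 1.69 to 5.29 times for Clec7a, 2.34 to 4.72 times for Spp1, 1.90 to 5.67 times for Lgals3 and 5.69 to 18.6 times for Gpnmb.

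Markers of blood monocytes and neutrophils were highest in some of the same mice. The 8 genes of that list summed to 29.96 CPM in PS/E3H mouse 4 and 17.8 CPM in PS/E4H mouse 1, against 1.73 to 6.28 CPM in the other PS/E3H mice and 2.73 to 3.44 CPM in the other PS/E4H mice. PS/E2H mouse 3 had 6.90 CPM, less than the 10.8 CPM of PS/E2H mouse 4, which was lowest of its group for 5 core genes, and E2H mouse 1 had 10.7 CPM without a rise in the core genes. The defining neutrophil gene Ly6g had at most 10 counts in any library. Markers of border macrophages, which sit in the meninges and around vessels, summed to 8.37 to 15.7 CPM in parental and 19.2 to 36.8 CPM in PS19 mice, with 0, 3 and 4 of 8 genes called higher in APOE2, APOE3 and APOE4 mice. The part of these cells in the core gene values was not tested.

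**Figure D3:**
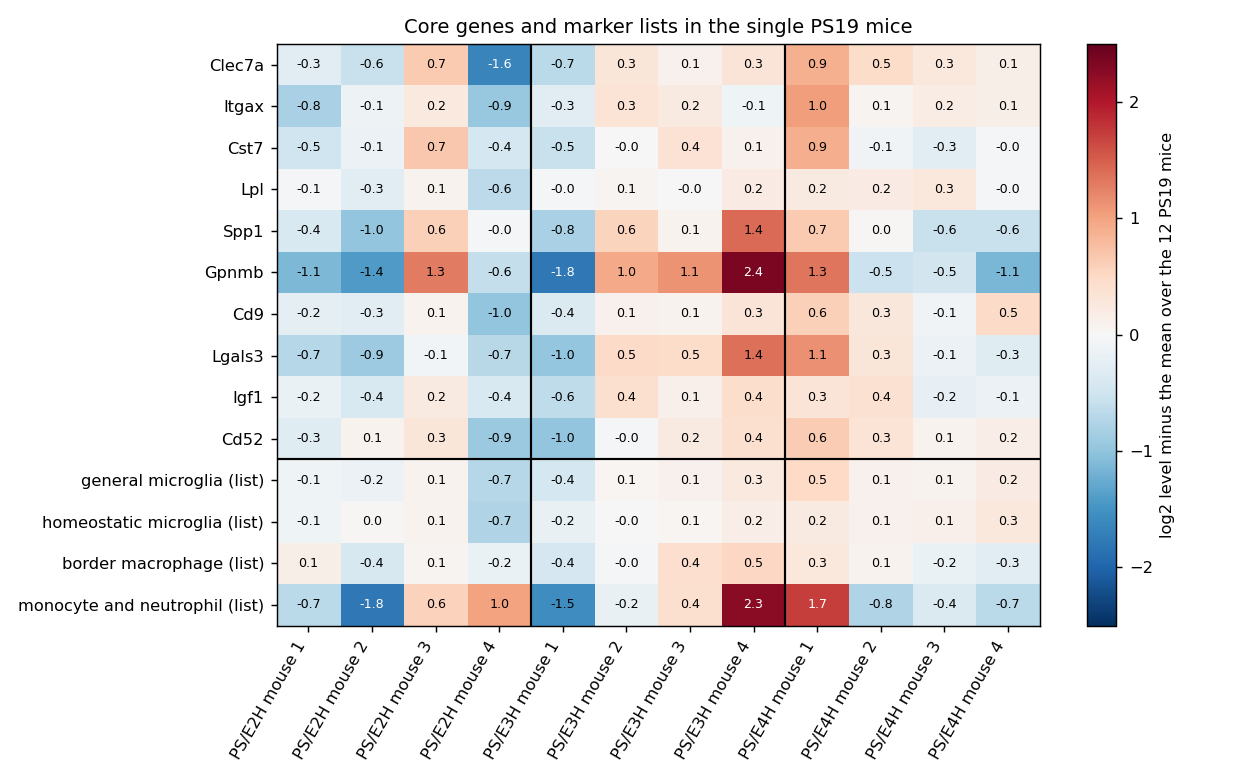
Each cell gives the log2 level of a gene (CPM + 0.5) or the log2 geometric mean of a marker list in 1 PS19 mouse, less its mean over the 12 PS19 mice, with the value printed in it. Gpnmb spans the widest range of the core genes and Lpl the narrowest, and PS/E3H mouse 4 and PS/E4H mouse 1 are high in Gpnmb, Spp1 and Lgals3 and in the monocyte and neutrophil list.

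Other genes of the same state moved with the core genes to differing degrees. The core genes and these lists were chosen with earlier results of these data known, so an order of their medians is a description only. Of 12 genes of TREM2 signaling and the early part of the state, 3 were called higher in APOE2, 4 in APOE3 and 7 in APOE4 mice, and none lower. Trem2, the receptor itself, and Ctsd, a lysosomal protease, were called in each line, Trem2 with log2 fold changes of 1.14, 1.49 and 1.95 and Ctsd with 1.11, 1.40 and 1.69. Of 18 further genes of the state, 3, 9 and 10 were called higher, among them the chemokine gene Ccl6 with log2 fold changes of 2.0, 2.49 and 2.78. The median log2 fold changes were 0.83, 0.84 and 1.16 for the 12 genes and 0.76, 1.06 and 1.47 for the 18, below the 1.36, 2.16 and 2.56 of the core genes. No homeostatic microglia gene was called lower, while 0, 1 and 2 of 12 were called higher, with medians of 0.20, 0.31 and 0.66, and Fcrls, a microglial Fc receptor-like gene, had log2 fold changes of 0.95, 1.45 and 1.56.

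**Figure D4:**
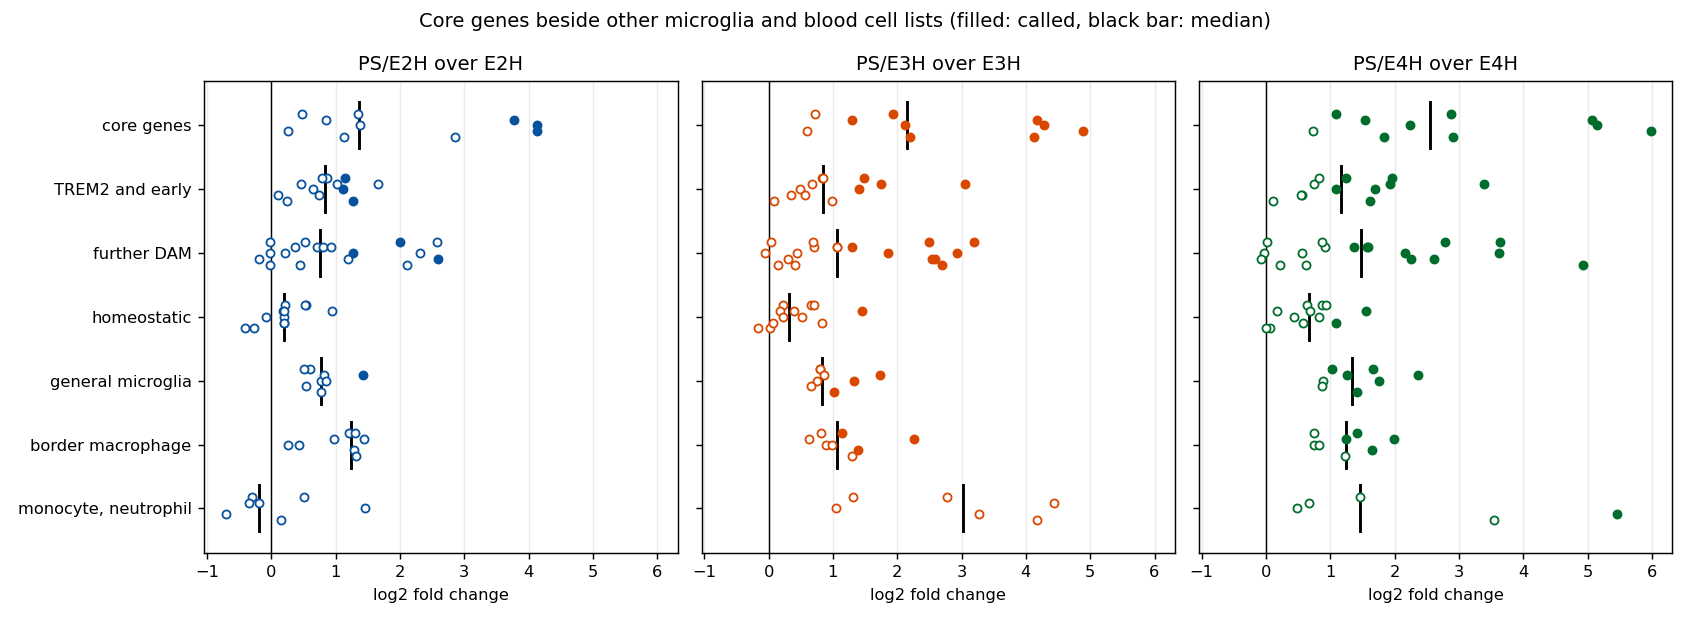
Points are the log2 fold changes of the genes of 7 lists in the 3 lines, filled where called, and black bars are the medians. The core genes have the highest median of the 5 microglia lists and of the border macrophage list in each line (1.36, 2.16 and 2.56), and the homeostatic list the lowest (0.20, 0.31 and 0.66). The lists were chosen with earlier results of these data known, so this order is a description only.

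Outside all lists, the genes whose profile over the 21 mice was most like that of the core genes were Mpeg1, Cxcl16, Vim, Fgr and Cd84. Likeness was the root mean square difference between a gene's log2(CPM + 0.5), centered on its mean, and the median profile of the 10 genes, over 19847 genes. It was 0.18 for Mpeg1, which encodes the macrophage pore-forming protein perforin-2, 0.22 for the chemokine gene Cxcl16, 0.25 for Vim, the intermediate filament vimentin, and 0.25 for both the Src family kinase gene Fgr and the receptor gene Cd84. The core genes themselves lay 0.29 (Cd52) to 1.05 (Cst7) from their own median profile. Mpeg1 had log2 fold changes of 1.5 in APOE2, 1.98 in APOE3 and 2.21 in APOE4 mice.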

How the data were processed

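RNA of 21 mouse forebrains was sequenced by the authors from stranded poly(A) libraries, trimmed with cutadapt, aligned with HISAT2 to GRCm38.p5 and assembled with StringTie, as named in the submitters' processing notes without versions. The authors deposited 1 table of whole-number counts per gene (55401 genes) and 1 table of FPKM (37538 genes); how the counts were derived from StringTie's output, and with which strand setting, is not given in the sources used here. Symbols and positions came from GENCODE M21 (55141 genes named).

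Counts were tested with edgeR 4.0.16 in R 4.3.3 (TMM, filterByExpr with a minimum count of 10 and a minimum total of 15, quasi-likelihood F test) in each pair of groups, with Benjamini-Hochberg adjustment over all genes tested. A call needed an adjusted p below 0.05 with a fold change of 2 or more, and in an interaction at the adjusted p alone. The standard error was the log2 fold change divided by the square root of F. Levels are TMM-scaled CPM computed from the deposited counts. The relative fits scaled each library to the geometric mean of 8 general microglia genes. Scripts were checked on simulated counts. The core genes and lists were chosen with earlier results of these data known. All core genes are described, of each other list no more than 3 called genes per direction and tau comparison, ordered by adjusted p, may be named, and so are the 5 genes most alike in profile. Labels do not say whether mice of a group were littermates. Alternatives used DESeq2 1.42.0, limma 3.58.1 on log2(FPKM + 1) and log2(FPKM + 0.1), other filters and scalings, and fits without single mice.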

Additional observations from a re-analysis of the deposited data

Results flagged for a closer look

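In 4 of 30 sets of 4 PS19 mice (10 genes in 3 groups), 1 mouse stood apart from the other 3, in that its gap to the nearest mouse divided by the whole range exceeded Dixon's critical value at the 95% level. Chance gives about 1 in 20 such sets, and the 10 genes are not independent of each other. Itgax in PS/E4H mouse 1 was 39.0 CPM, where the next mouse of the group had 21.2 CPM (gap over range 0.915). Cst7 in the same mouse was 23.8 CPM, where the next had 12 CPM (0.865). Gpnmb in that mouse was 78.4 CPM, where the next had 22.3 CPM (0.868). Gpnmb in PS/E2H mouse 3 was 76.9 CPM, where the next had 20.1 CPM (0.865).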

How the results depend on the processing

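Of the 15 counts of called core genes, 232 alternative values stayed within 1.5 times of the reported one and 8 did not, and no gene's call reversed. Many of the 232 belong to the APOE comparisons and interactions, where a reported count of 0 stayed 0 and was taken as unchanged. Those values say nothing about how steady the counts above 0 were. In APOE2 mice the 3 tau calls became 6 with the replicate block (adding Cd9, Lgals3 and Cd52) and 6 with DESeq2 (adding Gpnmb, Lgals3 and Cd52). In APOE3 mice the 8 became 5 with limma on log2(FPKM + 1), and DESeq2 called 1 core gene in place of 0 in the difference between APOE4 and APOE2 mice. Fits without 1 mouse at a time gave 1 to 4 calls in APOE2, 4 to 8 in APOE3 and 8 to 9 in APOE4 mice, 4, 4 to 7 and 4 to 6 relative to general microglia genes, and 0 for the APOE comparisons and the interactions. Replicate numbers were not taken to pair the mice: of 48 pairs with the same number, 8 correlated above 0.1 (range -0.23 to 0.27, median -0.03). The highest value, 0.27, was that of E2H mouse 2 with PS/E2H mouse 2. Of the PS19 mice numbered 1 to 3, 2 of 3, 2 of 3 and 0 of 3 in APOE2, APOE3 and APOE4 mice correlated best with the parental mouse of their own number. So few mice per line cannot decide whether mice were paired. With the block the other counts were 8 and 9 in APOE3 and APOE4 mice, 4, 4 and 5 relative to general microglia genes (Spp1 and Lgals3 lost in APOE3 mice), and 0 for the APOE comparisons and interactions.

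Over all genes the counts of calls moved more. In APOE2 mice 100 genes became 261 with DESeq2, 219 with all mice in one fit, 155 without the fold limit, 55 without a filter, 31 with limma on log2(FPKM + 1) and 30 to 99 without single mice. In APOE3 mice 281 became 157 with the block, 1141 without the fold limit, 173 without a filter, 59 with limma and 77 to 494 without single mice. In APOE4 mice 621 became 3252 without the fold limit, 132 with limma and 384 to 702 without single mice. Relative to general microglia genes, 2274, 7955 and 16520 genes became 190, 762 and 2817 with the homeostatic list as the scale. Without single mice these 3 counts ran from 760 to 6504, 5270 to 12504 and 15343 to 16745, with the replicate block they were 6550, 6025 and 16154, and without the fold limit 11036, 15926 and 18025. The cause was not tested.

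Leaving out libraries in which Ddx3y exceeded Xist was chosen after seeing the data, because leaving out those with Xist higher, as first intended, would have kept 4 libraries and was not run. With 3 or 4 mice per group, a miss of the threshold does not show that a gene was unchanged.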

Other observations

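Gfap, the intermediate filament gene that marks reactive astrocytes, rose in each line beside the core genes, with log2 fold changes of 2.30 (standard error 0.187, adjusted p = 0.000984) in APOE2, 2.66 (standard error 0.197, adjusted p = 0.000199) in APOE3 and 3.08 (standard error 0.125, adjusted p = 2.34e-06) in APOE4 mice by edgeR. Of the 8 astrocyte markers, 1, 1 and 2 were called higher, with medians of 0.29, 0.44 and 0.61. S100a8, a calcium-binding protein gene of neutrophils and monocytes, was called higher in APOE4 mice at 5.46 (standard error 1.41, adjusted p = 0.0277), and it was the 1 gene of 5 tested on its list that was. Its counts ran from 0 to 627 over all libraries, so this fold is set against a level near 0. Its list summed to 17.8 CPM in PS/E4H mouse 1 against 2.73 to 3.44 CPM in the other PS/E4H mice, and a fit without that mouse is not given for S100a8. No marker of neurons, oligodendrocytes, their precursors, T and B cells, vessels or choroid plexus was called in any line by edgeR. The median log2 fold changes of those lists in APOE2, APOE3 and APOE4 mice were -0.08, -0.06 and -0.10 for neurons, -0.04, 0.44 and 0.46 for oligodendrocytes, 0.15, 0.21 and 0.11 for their precursors, 0.09, 0.81 and -0.20 for T and B cells, 0.23, -0.19 and 0.04 for vessels and 0.33, 0.21 and 0.56 for choroid plexus.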
